A study of Mus musculus with 12 samples.

Results

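Hepcidin and the genes that move iron through the liver were followed in RNA from mouse livers after a statin diet. The members are 10 genes chosen by symbol, namely Hamp, Hamp2, Bmp6, Id1, Tfrc, Tfr2, Trf, Slc40a1, Fth1 and Ftl1, out of 48526 genes listed in the deposited table of CPM, the reads of a gene scaled to the total of its library. All 10 were also among the 11968 genes whose counts were tested. The livers came from female and male C57BL/6J mice, an inbred laboratory strain, kept for 4 weeks on a chow diet alone or with added simvastatin, a drug that blocks HMG-CoA reductase and with it the synthesis of cholesterol. Simvastatin was given at 0.1 g per kg, which the labels refer to body weight and the study's methods to food weight. The C57BL/6J cohorts were 8 to 10 weeks old when the diets began, and the labels of these livers give no age. The 2 sexes and 2 diets made 4 groups of 3 livers, and the labels name neither a transgene nor another treatment for any of them. The labels number the livers 1 to 3 within a group, and nothing ties livers with the same number together.

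Hepcidin is a peptide hormone that hepatocytes secrete. It binds ferroportin, the iron exporter encoded by Slc40a1, and causes its degradation, so that iron stays in macrophages, hepatocytes and gut cells. Bmp6, a ligand made mostly by the endothelial cells of the liver sinusoids, signals to hepatocytes through BMP receptors and SMAD proteins and switches on hepcidin and Id1. Transferrin (Trf) carries iron in the blood, transferrin receptor 1 (Tfrc) takes it into cells, transferrin receptor 2 (Tfr2) takes part in sensing it, and ferritin, built of heavy (Fth1) and light (Ftl1) chains, stores it. Mice have a pair of hepcidin genes, Hamp (also called Hamp1) and Hamp2.

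Hamp lies at chr7:30942368-30944032 and Hamp2 at chr7:30922372-30924681, both on the minus strand of GRCm38. The 250 bases before the RefSeq start of each gene are shown because this is where the iron signal and the inflammation signal reach hepcidin. They come from RefSeq on GRCm38.p6, on the minus strand, at chr7:30944030-30944279 for Hamp and chr7:30924182-30924431 for Hamp2, and GENCODE places the second window in an intron of an incomplete Hamp2 transcript. Capitals mark the letters GGCGCC, the core of a BMP response element bound by SMAD proteins, and TTCTTGGAA, a STAT site of the form TTCNNNGAA.
Hamp: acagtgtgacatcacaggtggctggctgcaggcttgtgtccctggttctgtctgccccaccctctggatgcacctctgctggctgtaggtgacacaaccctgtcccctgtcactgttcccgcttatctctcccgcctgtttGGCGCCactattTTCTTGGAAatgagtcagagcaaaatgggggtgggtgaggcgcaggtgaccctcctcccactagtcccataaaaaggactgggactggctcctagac
Hamp2: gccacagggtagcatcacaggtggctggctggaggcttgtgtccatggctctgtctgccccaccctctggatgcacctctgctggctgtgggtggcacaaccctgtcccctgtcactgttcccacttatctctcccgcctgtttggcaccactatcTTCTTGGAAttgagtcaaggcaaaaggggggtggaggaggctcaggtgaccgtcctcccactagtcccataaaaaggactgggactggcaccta
The windows were identical at 227 of 247 aligned bases, 91.9%. The Hamp window held GGCGCC at 109 to 104 bases before the start, and the Hamp2 window differed there by G4A, counted from 1 at the first base of the motif. Both held TTCTTGGAA, at 97 to 89 bases before the start in Hamp and 94 to 86 in Hamp2. Searched on both strands, GGCGCC occurred in 9.59% of 32851 RefSeq windows of 250 bases, TTCNNNGAA in 7.02% and TTCTTGGAA, a special case of it, in 0.365%. Among the other members with a RefSeq window (Bmp6, Tfrc, Tfr2, Fth1 and Ftl1), GGCGCC occurred in a window of Tfrc. These matches describe letters in a window and were not tested as sites.

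The mRNAs of 4 members hold iron responsive elements, hairpins bound by iron regulatory proteins when iron is scarce. Binding in a 5′ UTR blocks translation, and binding in a 3′ UTR stabilises the mRNA. The search took a C, 5 bases, the loop letters CAGTG, any base but G, and 5 bases able to pair with the first 5, G with U included. The elements are printed as DNA on the strand of the mRNA, as 27 bases of the GRCm38 transcripts in GENCODE, with the loop in capitals.
Tfrc, 3′ UTR, chr16:32631220-32631246: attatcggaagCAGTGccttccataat
Tfrc, 3′ UTR, chr16:32631599-32631625: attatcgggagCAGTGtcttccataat
Tfrc, 3′ UTR, chr16:32631664-32631690: tatatcggagaCAGTGatctccatatg
Tfrc, 3′ UTR, chr16:32631711-32631737: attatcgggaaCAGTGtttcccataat
Slc40a1, 5′ UTR, chr1:45925466-45925492: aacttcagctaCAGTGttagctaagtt
Fth1, 5′ UTR, chr19:9982733-9982759: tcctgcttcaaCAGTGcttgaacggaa
Ftl1, 5′ UTR, chr7:45459780-45459806: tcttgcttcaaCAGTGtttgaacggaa
A match to this pattern occurred in 131 of 11421 transcripts searched, 1 per gene, 1.15%, and Tfrc with 4 matches was the 1 transcript that held 2 or more. Elements of another form would be missed by the pattern, and the matches were not tested as elements. The Fth1 and Ftl1 elements share the loop and the letters tgcttcaa before it. Levels of mRNA, as measured here, do not show the translation that the 5′ elements control.

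Livers had 46066381 to 60419223 counts each. A level of 3 counts, used here as the floor of detection for counting error alone, came to 0.0497 to 0.0651 CPM. Levels below are CPM normalized by TMM, a trimmed mean of log ratios between libraries, and tests are two-sided quasi-likelihood tests of edgeR, with p adjusted by the Benjamini-Hochberg method over all 11968 genes and called under 0.05. The hepatocyte markers Alb, Ttr, Apoa1, Serpina1a and Tat were present in every liver, and their summed deposited CPM was between 73152 and 141174. Female statin replicate 3 and male chow replicate 3 stood apart from their groups in the members, with the lowest Hamp, Hamp2 and Id1 and the highest Tfrc, Tfr2 and Trf of their groups. Member values below that changed sign or moved by over 1.5 times with 1 of these livers left out are given both ways. The libraries are bulk tissue, so that fewer cells of a type and less RNA per cell cannot be told apart, and since the labels do not describe how the livers were collected, p-values measure the spread between these livers.

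None of the 10 members passed the test for statin against chow in either sex, by edgeR, DESeq2 or limma or under any of the 23 alternatives (22 for Bmp6, which a stricter filter on low counts removed). In females 12 of all genes tested were called, 0.1%, and in males 0, 0.0%. At an unadjusted p under 0.05 there were 2 members in females, Id1 lower and Slc40a1 higher on statin, against 10.5% of all genes, and 1 in males, Slc40a1 lower on statin, against 1.96%. The median log2 fold change of the members was 0.04 in females and -0.01 in males, and that of all genes was 0.01 and 0.00. Sex gave the calls: on chow Hamp2 was higher and Slc40a1 lower in females than in males, where 10.4% of all genes were called, and on statin Trf was higher in females, where 6.28% were called. The interaction of sex and statin called 0 members and 0 of all genes, 0.0%, with 3 members (Id1, Trf and Slc40a1) and 8.01% of all genes at an unadjusted p under 0.05.

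**Figure D1:**
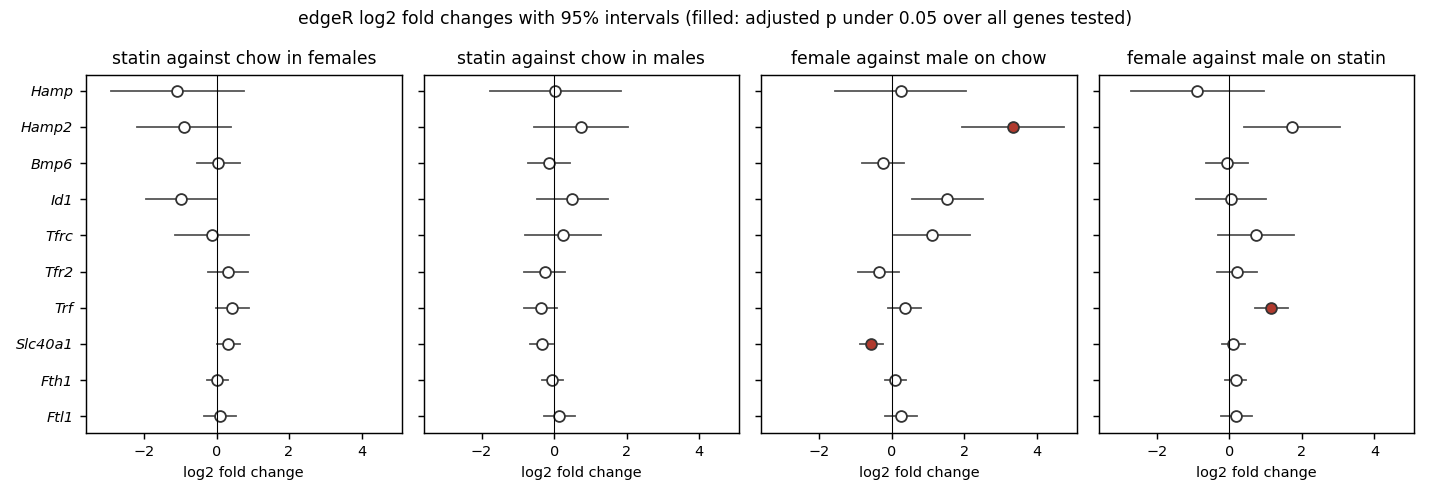
Log2 fold changes of the 10 members on the x axis in 4 comparisons, with edgeR's 95% intervals as lines and filled points for an adjusted p under 0.05. In both statin panels every point is open, and the filled points are Hamp2 (3.35) and Slc40a1 (-0.56) between the sexes on chow and Trf (1.16) between the sexes on statin.

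Per kilobase of transcript the members ran over a wide range. The mean over all livers was 1929 CPM per kb for Ftl1, 1100 for Fth1, 1089 for Hamp, 581 for Hamp2, 162 for Trf, 143 for Tfr2, 65.0 for Slc40a1, 7.26 for Id1, 4.69 for Tfrc and 1.38 for Bmp6. Over all 12 livers the highest was 1.34 times the lowest in Fth1, 1.81 times in Slc40a1, 1.92 times in Ftl1, 20.2 times in Hamp and 27.2 times in Hamp2, where the Hamp2 ratio takes in its difference between the sexes. Within a group the ratio was 1.46 to 16.7 for Hamp and 1.29 to 6.78 for Hamp2. The order of Fth1 and Hamp, and of Trf and Tfr2, therefore lies within their spread between livers. The place of Hamp2 depended on the group, since its mean was 694 CPM per kb against 644 for Hamp in the statin females, and 127 against 135 for Trf and 160 for Tfr2 in the chow males.

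**Figure D2:**
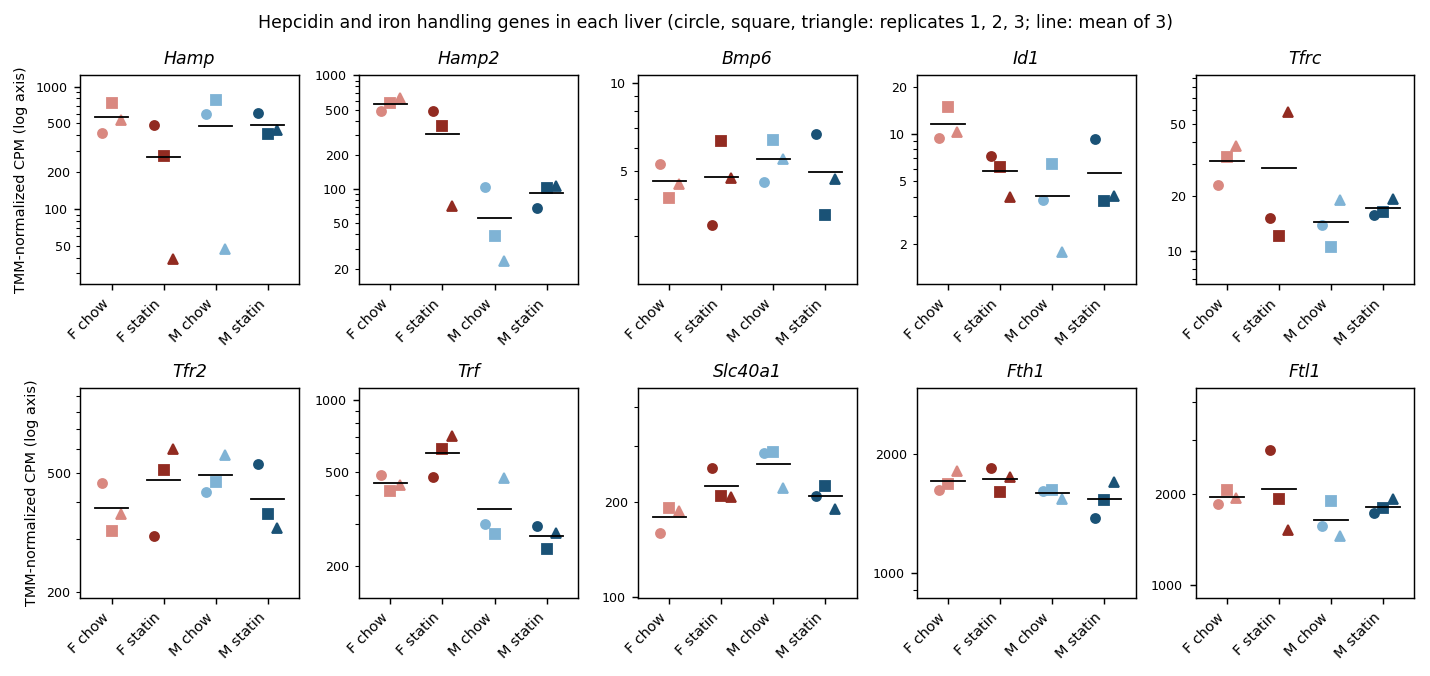
TMM-normalized CPM of each member in each of the 12 livers, on a log axis that differs between panels. Points are livers, with the shape for the replicate number, and the line is the mean of 3. Hamp reached 784 CPM in male chow replicate 2 and 46.9 CPM in replicate 3 of that group, and Fth1 stayed between 1381 and 1849 CPM.

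Hamp, the main iron hormone gene, was read at 417, 736 and 529 CPM in the chow females and at 483, 270 and 38.8 CPM in the statin females. In males it was 592, 784 and 46.9 CPM on chow and 603, 412 and 444 CPM on statin. The groups overlapped in both sexes, and 1 liver in each of female statin and male chow was far below the other livers of its group. The log2 fold change with statin was -1.09 (SE 0.84, 95% interval -2.92 to 0.75, adjusted p = 0.779) in females and 0.04 (SE 0.83, -1.78 to 1.85, adjusted p = 1.00) in males. Without female statin replicate 3 the female value was -0.56, and without male chow replicate 3 the male value was -0.50, the opposite sign. Intervals this wide leave room for a change of several fold in either sex. Females and males did not differ detectably on chow (0.24, SE 0.83, adjusted p = 0.898), and that sign also turned, to -0.29, without male chow replicate 3.

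Hamp2, the second hepcidin gene, was read at 491, 569 and 635 CPM in the chow females against 104, 38.6 and 23.4 CPM in the chow males. The female livers all lay above the male livers, and the log2 fold change of 3.35 (SE 0.65, 95% interval 1.94 to 4.76, adjusted p = 0.00639) was called under all 23 alternatives. On statin the levels were 481, 358 and 71.0 CPM in females and 68.2, 102 and 107 CPM in males. Here the sexes overlapped because of female statin replicate 3, and the difference of 1.72 (SE 0.61, adjusted p = 0.131) did not pass, while without that liver it was 2.18 with an adjusted p of 0.0230. With statin the log2 fold change of Hamp2 was -0.90 (SE 0.60, adjusted p = 0.703) in females, where all statin livers lay below all chow livers, and 0.73 (SE 0.60, adjusted p = 1.00) in males. The female value was -0.41 without female statin replicate 3. The male value was 0.37 without male chow replicate 3, and it ran up to 1.57 with another liver left out.

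The share of Hamp2 among the reads of both hepcidin genes separated the sexes in every liver. It was 54.1%, 43.6% and 54.6% in the chow females and 49.9%, 57.0% and 64.7% in the statin females. In males it was 15.0%, 4.70% and 33.3% on chow and 10.2%, 19.8% and 19.4% on statin. The lowest female share was thus above the highest male share, and the livers with the least Hamp, female statin replicate 3 and male chow replicate 3, had the highest share of their sex. The mean was 50.7% ± 6.20 (SD, n = 3) in the chow females, 57.2% ± 7.38 in the statin females, 17.7% ± 14.5 in the chow males and 16.5% ± 5.45 in the statin males. The mRNAs are alike, with 94.6% identity over 410 aligned bases and 16.6% of the 50-base stretches of Hamp found unchanged in Hamp2. How reads that fit both genes were counted was not stated in the sources used here, so the split between the genes is uncertain, by an amount that was not measured.

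**Figure D3:**
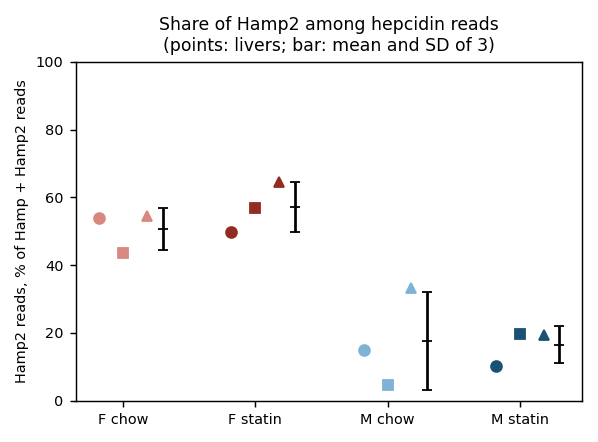
Hamp2 reads as a percentage of Hamp and Hamp2 reads together, for each of the 12 livers by group, with the mean and SD of 3 livers. The 6 female livers sit between 43.6% and 64.7% and the 6 male livers between 4.70% and 33.3%.

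Bmp6, the ligand that drives hepcidin, had the lowest level per kilobase of the members. Its levels were 5.29, 4.04 and 4.51 CPM in the chow females, 3.28, 6.34 and 4.73 CPM in the statin females, 4.59, 6.37 and 5.48 CPM in the chow males and 6.69, 3.54 and 4.71 CPM in the statin males. The groups overlapped in every comparison, and the log2 fold change with statin was 0.05 (SE 0.27, 95% interval -0.53 to 0.64) in females and -0.14 (SE 0.27, -0.72 to 0.44) in males. These intervals leave out a doubling or a halving of Bmp6 mRNA in either sex. The female value was 0.08 without female statin replicate 3. The summed deposited CPM of 6 markers of sinusoidal endothelial cells (Stab1, Stab2, Lyve1, Clec4g, Oit3 and Kdr) was 293 to 316 in the chow females, 228 to 342 in the statin females, 198 to 266 in the chow males and 207 to 279 in the statin males, and none of these genes was at 0. The sums did not overlap between the sexes on chow, where 1 of the 6, Clec4g, was called higher in females (0.67, adjusted p = 0.00567), as were 5.96% of all genes.

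Id1, a transcription regulator switched on by BMP signalling, was read at 9.47, 15.0 and 10.3 CPM in the chow females and at 7.28, 6.21 and 3.99 CPM in the statin females. All statin females lay below all chow females, and the log2 fold change was -0.99 (SE 0.44, 95% interval -1.95 to -0.03) with an unadjusted p of 0.0449 and an adjusted p of 0.460. In males the levels were 3.79, 6.46 and 1.76 CPM on chow and 9.31, 3.73 and 4.01 CPM on statin, which overlap, with 0.50 (SE 0.45, adjusted p = 1.00), and 0.15 without male chow replicate 3. The interaction was -1.49 (SE 0.63, unadjusted p = 0.0355, adjusted p = 0.572). Between the sexes on chow every female was above every male, with a log2 fold change of 1.53 (SE 0.45) at an adjusted p of 0.0502, just outside the threshold. It passed under 11 of the 23 alternatives, among them DESeq2 (adjusted p = 0.00525) and limma (0.0287). It also passed without male chow replicate 2 (2.06, adjusted p = 0.0266), female statin replicate 1 (0.0491) or 3 (0.0493) or male statin replicate 1 (0.0250), and was at 1.17 (0.141) without male chow replicate 3.

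Among 5 other targets of BMP and SMAD signalling (Id2, Id3, Smad6, Smad7 and Atoh8), 0 passed the test with statin in either sex by edgeR, DESeq2 or limma. Their median log2 fold change was -0.63 in females, and 0.14 in males, against 0.01 and 0.00 for all genes. In females 1 of the 5 was lower at an unadjusted p under 0.05, where 10.5% of all genes passed in either direction. Smad7, which feeds back on the pathway, was 11.3, 11.2 and 15.7 CPM in the chow females and 7.68, 8.13 and 6.54 CPM in the statin females. Those groups did not overlap, and the value was -0.77 (SE 0.27, adjusted p = 0.320). In males Smad7 was 7.56, 14.6 and 6.95 CPM on chow and 16.1, 11.9 and 10.3 CPM on statin, with 0.39 (SE 0.27, adjusted p = 1.00). The 13 BMP receptors and regulators of hepcidin centred on 0.00 in females and 0.04 in males with 0 called. Hjv, the BMP co-receptor of hepatocytes, had the smallest p of that list in males, at 107, 92.7 and 99.8 CPM on chow and 74.5, 66.7 and 73.3 CPM on statin (-0.48, SE 0.13, unadjusted p = 0.00282, adjusted p = 1.00). Smad4, the partner shared by the SMAD proteins, had the smallest p in females (-0.26, SE 0.12, adjusted p = 0.498).

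Tfrc, the receptor that imports iron-loaded transferrin, was read at 23.0, 33.0 and 37.9 CPM in the chow females and at 15.3, 12.1 and 58.6 CPM in the statin females. Replicates 1 and 2 on statin lay below every chow female and replicate 3 lay above every other liver of the study. The log2 fold change of -0.13 (SE 0.47, 95% interval -1.15 to 0.90, adjusted p = 0.984) became -1.18 (adjusted p = 0.262) without that liver. In males Tfrc was 13.8, 10.5 and 19.2 CPM on chow and 15.7, 16.5 and 19.4 CPM on statin, with 0.25 (SE 0.48, adjusted p = 1.00), and 0.50 without male chow replicate 3. On chow all females were above all males by 1.11 (SE 0.48, adjusted p = 0.172), and this passed without female statin replicate 3, which is in neither group but enters the shared spread (1.10, adjusted p = 0.0116). On statin the sex difference of 0.74 turned to -0.33 without that liver.

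Tfr2, the receptor of hepatocytes that takes part in iron sensing, was 461, 320 and 366 CPM in the chow females, 307, 513 and 600 CPM in the statin females, 431, 467 and 574 CPM in the chow males and 535, 365 and 328 CPM in the statin males. The groups overlapped throughout. Its log2 fold change with statin was 0.31 (SE 0.26, adjusted p = 0.804) in females and -0.26 (SE 0.26, adjusted p = 1.00) in males. These were 0.12 in females without female statin replicate 3 and -0.13 in males without male chow replicate 3.

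Trf, the transferrin that hepatocytes secrete into blood, was read at 476, 625 and 704 CPM in the statin females and at 296, 236 and 275 CPM in the statin males. The groups were well apart, and the log2 fold change of 1.16 (SE 0.21, 95% interval 0.70 to 1.62, adjusted p = 0.00635) was called under all 23 alternatives. The summed deposited CPM of the hepatocyte markers did not overlap here either, at 112592 to 141174 in the statin females and 77234 to 85593 in the statin males, and Alb made up most of the sum, at 98480 to 126643 against 63441 to 71323. Tat lay the other way without overlap, at 642 to 759 CPM in the statin females and 1197 to 1329 in the statin males. Ttr, Apoa1 and Serpina1a overlapped, so that Alb alone lay apart in the direction of the sum. Of the 5 markers, 0 were called between the sexes on statin, and their part in the Trf difference was not tested. On chow Trf was 484, 414 and 439 CPM in females and 301, 274 and 468 CPM in males, where male chow replicate 3 lay among the females. The difference on chow was 0.36 (SE 0.21, adjusted p = 0.318), and 0.63 (adjusted p = 0.0770) without that liver. Statin against chow gave 0.43 (SE 0.21, adjusted p = 0.509) in females and -0.37 (SE 0.21, adjusted p = 1.00) in males, and the interaction was 0.80 (SE 0.29, unadjusted p = 0.0179, adjusted p = 0.473), so that a change of the sex difference by diet was not shown. Without male chow replicate 3 the male value was -0.10 and the interaction 0.53. Trf overlaps another gene model, Gm20425, on the same strand.

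Slc40a1, which encodes the exporter ferroportin, was read at 159, 191 and 187 CPM in the chow females and at 286, 288 and 221 CPM in the chow males. All females were below all males on chow, by -0.56 on the log2 scale (SE 0.15, 95% interval -0.89 to -0.24, adjusted p = 0.0312). This call was lost without female chow replicate 1, 2 or 3 (adjusted p = 0.112, 0.0654 and 0.0638) and without male chow replicate 1 or 2 (0.121 and 0.109). On statin the levels were 257, 209 and 208 CPM in females and 209, 225 and 190 CPM in males, which overlap, with 0.11 (SE 0.15, adjusted p = 0.782). Within females statin gave 0.33 (SE 0.15, unadjusted p = 0.0469, adjusted p = 0.466), with every statin liver above every chow liver, and within males -0.35 (SE 0.15, unadjusted p = 0.0368, adjusted p = 1.00). The interaction of 0.67 (SE 0.21, 95% interval 0.22 to 1.13) had an unadjusted p of 0.00722 and an adjusted p of 0.383, so that it did not pass either.

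Macrophages of the liver, the Kupffer cells, also export iron. The summed deposited CPM of 7 Kupffer cell genes (Clec4f, Cd5l, Vsig4, Timd4, Marco, Adgre1 and Cd163) was 455 to 556 in the chow females, 366 to 693 in the statin females, 245 to 381 in the chow males and 245 to 312 in the statin males, with none at 0. Of the 7, 2 were called higher in females on chow, where 5.96% of all genes were, and 4 on statin, where 4.38% were, and 0 were called with statin in either sex. The 5 stellate cell markers (Reln, Lrat, Des, Dcn and Pdgfrb) summed to 278 to 345 CPM in the chow females and 175 to 203 CPM in the chow males, with 2 called higher in females on chow and 0 on statin. Slc40a1 was lower in females on chow, the opposite direction to the markers of both cell types, and their part in its level was not tested.

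The ferritin chains Fth1 and Ftl1, which store iron, were abundant in every liver. Fth1 was 1627, 1678 and 1816 CPM in the chow females, 1849, 1605 and 1749 CPM in the statin females, 1614, 1627 and 1542 CPM in the chow males and 1381, 1534 and 1705 CPM in the statin males. Its log2 fold change with statin was 0.02 (SE 0.13, 95% interval -0.26 to 0.30) in females and -0.05 (SE 0.13, -0.33 to 0.23) in males, the narrowest intervals of the members, and the female sign turned to -0.01 with scaling by library size alone. Ftl1 was 1845, 2059 and 1930 CPM in the chow females, 2792, 1918 and 1514 CPM in the statin females, 1566, 1888 and 1455 CPM in the chow males and 1724, 1788 and 1923 CPM in the statin males. The statin females spread on both sides of the chow females, and the values were 0.09 (SE 0.20, 95% interval -0.34 to 0.53) in females and 0.15 (SE 0.20, -0.29 to 0.58) in males. They were 0.29 without female statin replicate 3 and 0.07 without male chow replicate 3. Ftl1 overlaps a gene model on each strand, Gm22133 on its own and Gm10252 on the other, Bmp6 overlaps 4930579J19Rik and Txndc5 on the other strand, and both hepcidin genes overlap Gm44662 on the other strand. The library kit marks strand, and how strand entered the counting was not stated in the sources used here.

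Livers that were low in hepcidin shared a profile across the members. Female statin replicate 3 had 38.8 CPM of Hamp, 71.0 of Hamp2 and 3.99 of Id1 beside 58.6 of Tfrc, 600 of Tfr2 and 704 of Trf. Male chow replicate 3 had 46.9 CPM of Hamp, 23.4 of Hamp2 and 1.76 of Id1 beside 19.2 of Tfrc, 574 of Tfr2 and 468 of Trf. In both, the first 3 genes were the lowest and the last 3 the highest of the group. Of the markers of erythroid cells and blood, the globin genes Hba-a1, Hba-a2, Hbb-bs and Hbb-bt were highest of the 12 livers in female statin replicate 3, at 39.3, 11.8, 161 and 27.2 deposited CPM. In male chow replicate 3 they were 32.2, 11.1, 88.7 and 17.8 CPM, the highest of its group but for Hbb-bs, which was the lowest. Slc4a1, an anion exchanger of red cells, was 1.12 and 1.17 CPM in these livers and 0.0404 to 0.761 CPM in the others. The summed markers of Kupffer cells and of stellate cells were lowest of the group in both livers, but the single markers were mixed. In female statin replicate 3 every Kupffer marker was the lowest of its group, while Reln, Lrat and Pdgfrb were not. In male chow replicate 3 Clec4f, Vsig4, Lrat and Dcn were the lowest of the group. There Cd163, Reln and Pdgfrb were the highest, at 20.0, 42.5 and 6.04 CPM, and the other markers lay between. The Kupffer sum was 366 CPM in female statin replicate 3 against 693 and 543, and 244.6 in male chow replicate 3 against 247 and 381. The stellate sum was 200 CPM against 263 and 295, and 175 against 199.9 and 203. The part of these cell types in the profile was not tested. On log2(CPM + 1) centred on the group means, over 12 livers, Hamp followed Id1 with a Pearson r of 0.79 (Spearman 0.81) and 0.68 without those 2 livers, which lie farthest from the median of Hamp. Trf ran against Hamp with r = -0.87 (Spearman -0.75), and -0.69 without the 2 livers. Hamp2 followed Hamp with 0.79 (Spearman 0.62), which dropped to 0.46 without them. Slc40a1 gave 0.76 (Spearman 0.82, the highest of the members) and 0.63 without the 2 livers, and Ftl1 gave 0.76 and 0.64. Tfrc gave -0.74, which was -0.44 without them, and Tfr2 -0.59 and -0.40. Bmp6 gave -0.07 and Fth1 0.14. These values are given as descriptions, without p-values, since the livers share groups and the members were chosen with the values known.

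**Figure D4:**
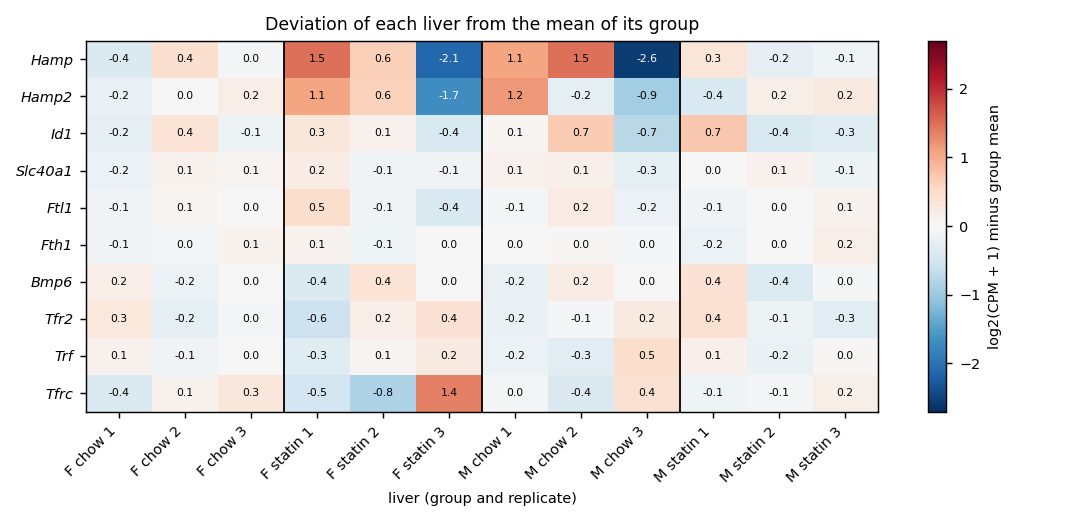
Difference of each liver from the mean of its group on log2(CPM + 1), for 10 members (rows) and 12 livers (columns, 3 per group), from blue for lower to red for higher. Female statin 3 and male chow 3 are blue in Hamp, Hamp2 and Id1 and red in Tfr2, Trf and Tfrc, and Fth1 and Bmp6 do not follow.

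Over the same centred values and 7640 genes averaging 10 CPM or more, the 5 genes most like Hamp were Rnf149 (Pearson r 0.92), Ugt2b1 (0.90), Mfsd14b (0.88), Gstm4 (0.87) and Slc25a30 (0.87). Without the 2 low livers these were 0.75, 0.79, 0.79, 0.65 and 0.65. Id1 and Bmp6 average less than that and were not searched, and none of the members searched was among the 5.

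The other routes to hepcidin were read from lists of the pathway, 62 genes in 8 lists, all of them tested. With statin 0 of the 62 passed the test in females and 0 in males by edgeR and by limma, DESeq2 called 1, Socs3 in females, and at an unadjusted p under 0.05 there were 4 (2 higher, 2 lower) in females, against 10.5% of all genes, and 2 (both lower) in males, against 1.96%. Inflammation raises hepcidin through IL-6 and STAT3, and Socs3, the feedback gene of that pathway, had the smallest p of all the lists in females. It was 25.8, 42.9 and 9.53 CPM in the chow females and 7.84, 9.21 and 6.90 CPM in the statin females. The statin livers were lower without overlap, by -1.71 (SE 0.46, unadjusted p = 0.00277, adjusted p = 0.186). In males Socs3 was 5.90, 12.1 and 4.39 CPM on chow and 6.54, 8.16 and 7.30 CPM on statin, and Stat3 had the smallest p of that list (-0.17, SE 0.27, adjusted p = 1.00). On chow Socs3 was higher in females than in males (1.80, SE 0.46, adjusted p = 0.0266).

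Acute-phase genes, which hepatocytes turn on in inflammation, differed by sex and not detectably by statin. On chow 5 of the 8 were higher in females (5.96% of all genes were called higher), and the median log2 fold change of the list was 2.61 against -0.01 for all genes. Saa1 and Saa2, serum amyloid proteins, were higher by 4.19 (SE 0.60, adjusted p = 0.00106) and 5.07 (SE 0.78, adjusted p = 0.00169). Lcn2, a protein that binds bacterial iron carriers, was 289, 277 and 155 CPM in the chow females and 11.5, 19.5 and 18.3 CPM in the chow males (3.87, SE 0.36, adjusted p = 3.52e-05). Orm1 and Orm2, which encode orosomucoids, were higher by 1.59 and 3.64. On statin 5 of the 8 were also higher in females (4.38% of all genes were), Saa1 (4.25), Saa2 (5.08), Lcn2 (4.39), Orm2 (3.06) and Itih4 (1.13). Itih4 overlapped between the sexes, at 2516, 5264 and 5126 CPM in the statin females and 2569, 1792 and 1540 CPM in the statin males. The smallest p with statin in this list was that of Orm2 in females (-0.70, SE 0.34, adjusted p = 0.522) and of Lcn2 in males (-0.91, SE 0.33, unadjusted p = 0.0184, adjusted p = 1.00).

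Iron transport and heme recovery held the remaining sex calls of edgeR, and DESeq2 also called Heph on chow and Slc39a14, Steap4 and Hp on statin in these lists. Steap2, a metalloreductase, was 27.7, 27.7 and 19.5 CPM in the chow females and 10.2, 7.07 and 11.8 CPM in the chow males (1.37, SE 0.22, adjusted p = 0.00244), and it was higher in females on statin too (0.81, SE 0.22, adjusted p = 0.0497), a call that limma did not make. Steap3, the reductase that frees iron for use after transferrin uptake, was lower in females on chow, with 12.02, 9.49 and 13.0 CPM against 20.95, 25.005 and 23.6 CPM (-1.01, SE 0.22, adjusted p = 0.0112). In its list it also had the smallest p with statin in both sexes, at 0.58 (SE 0.21, adjusted p = 0.350) in females and -0.29 (SE 0.21, adjusted p = 1.00) in males. Hpx, the heme carrier hemopexin, was higher in females by 0.90 on chow (SE 0.16, adjusted p = 0.00453) and 1.09 on statin (SE 0.16, adjusted p = 0.00175). Flvcr2 was higher in females on statin (1.56, SE 0.37, adjusted p = 0.0270), and had the smallest p with statin among the heme genes in both sexes (1.00 with SE 0.36 in females and -0.77 with SE 0.37 in males, adjusted p = 0.346 and 1.00).

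Sensing of iron inside the cell and its use in mitochondria gave no calls by edgeR. In the list of iron sensing and ferritin turnover, 0 of 6 genes were called in the statin and sex comparisons by edgeR, DESeq2 or limma (1 lower at an unadjusted p under 0.05, between the sexes on statin, where 7.21% of all genes were), and the smallest p with statin was that of Ireb2, which encodes an iron regulatory protein, in females (-0.24, SE 0.14, adjusted p = 0.635) and of Fbxl5, which marks that protein for degradation, in males (0.35, SE 0.24, adjusted p = 1.00). Of the 7 genes of mitochondrial iron use 0 were called by edgeR or limma (2 lower in females at an unadjusted p under 0.05 on either diet, where 11.6% of all genes were on chow and 7.21% on statin), DESeq2 called Iscu on chow and Slc25a28 on statin lower in females, and Slc25a28, an iron carrier of the mitochondrial membrane, had the smallest p in both sexes (-0.14, SE 0.14, adjusted p = 0.860 in females and 0.12, SE 0.14, adjusted p = 1.00 in males). The median of both lists lay between -0.07 and 0.07 with statin.

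**Figure D5:**
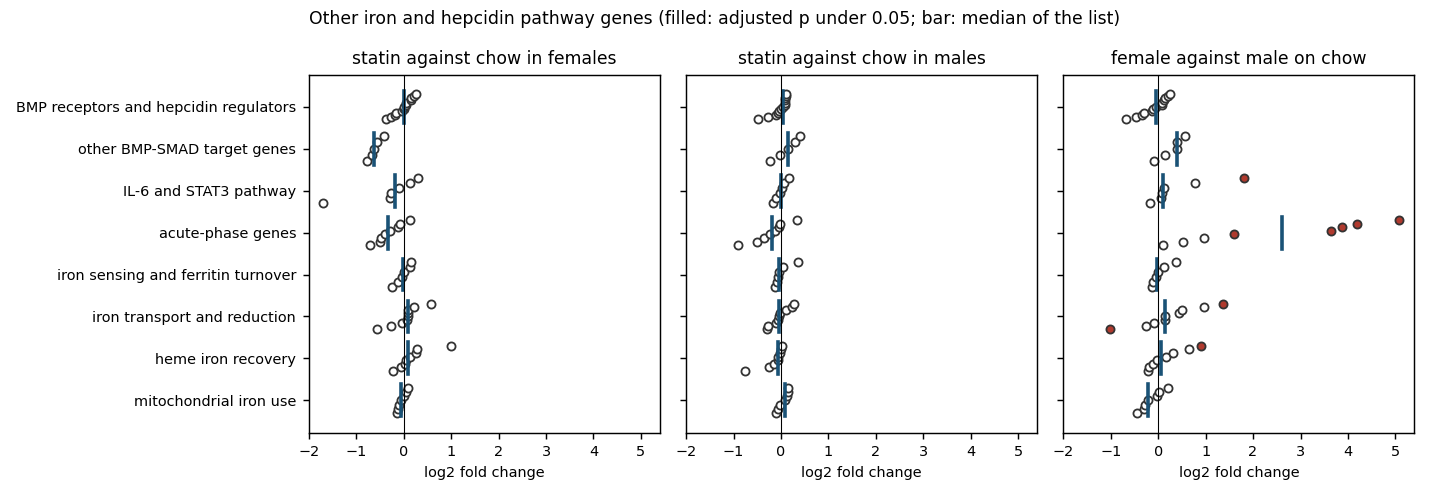
Log2 fold changes (x axis, the same in each panel) of the 62 other pathway genes in 8 lists (rows) for statin against chow in females and in males and for female against male on chow. Points are genes, filled at an adjusted p under 0.05, and the bar is the median of the list, which is 2.61 for the acute-phase genes between the sexes on chow.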

How the data were processed

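RNA from 12 mouse livers was sequenced by the authors as strand-specific poly(A) libraries with paired reads of 50 bases. The submitters' processing notes name STAR 2.4.1a, HTSeq, edgeR 3.28.1 and the build GRCm38. The authors deposited CPM for all genes and a table named as TMM-normalized that holds raw counts of 11968 genes, those over 1 CPM in 6 or more livers. All CPM above 0 were whole reads within 0.01 read, and 0 values of the count table differed from them. Columns of statistics were not used.

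The counts were fitted with edgeR 4.0.16 (quasi-likelihood, TMM, 4 groups in one fit, no covariate, common dispersion 0.0380). Standard errors are log2 fold changes over the root of F. Alternatives were DESeq2 1.42.0, limma 3.58.1 on log2(CPM + 1), other scalings and filters, the groups compared alone, the replicate number as a block, each liver left out and, chosen after seeing the data, 2 livers left out together and transcript length offsets. The methods were tested on simulated counts of 11968 genes in which 200 were changed between statin and chow females by 1 on the log2 scale: edgeR recovered 122 with 3 false calls, limma 122 with 6 and DESeq2 152 with 30. The 200 genes were drawn at random and no sex difference was simulated, so recovery of the members was not measured. The members and lists were chosen with earlier results of these data known. Genes named beside the members are those called in any of the 5 comparisons and the smallest p of each list with statin in each sex, and Smad7 and Socs3 values in males are given beside their female values. Positions and transcripts are from GENCODE vM21, and 99.8% of tested genes had a symbol. The summed level of the erythroid and blood markers is not reported here.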

Additional observations from a re-analysis of the deposited data

How the results depend on the processing

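Of the members, Hamp2 between the sexes on chow and Trf between the sexes on statin kept their call and direction under all 23 alternatives. With statin 0 members were called under any of the 23 (22 for Bmp6, which the stricter filter removed), and in the interaction 0 under any of 22 (21 for Bmp6), since fitting the groups compared alone gives no interaction. On chow the members called were 4 with no filter on low counts and 4 with only the groups compared fitted. On statin they were 2 with no filter and 2 with female statin replicate 3 and male chow replicate 3 left out together. Leaving out 1 liver gave 1 to 4 members on chow and 1 to 2 on statin.

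The count of all genes called in females was 270 with DESeq2, 148 with no filter, 28 with transcript length offsets, 0 with only the groups compared, 0 with both livers out, and 0 to 75 with 1 liver out (75 without female statin replicate 2 and 62 without replicate 1). In males it was 4 with DESeq2. The interaction gave 122 with DESeq2, 103 with no filter and 0 to 14 with 1 liver out (14 without female statin replicate 2). Between the sexes on chow it was 1946 with DESeq2, 2151 with only the groups compared, 809 with both livers out and 635 to 1586 with 1 out, and on statin 1284 with DESeq2, 500 with the stricter filter, 292 with only the groups compared and 378 to 743 with 1 out. The cause was not tested.

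With both livers out, Hamp turned to -0.50 in males and to -0.29 between the sexes on chow, Ftl1 to 0.21 in the interaction and Tfrc to -0.32 between the sexes on statin. Fth1 turned to -0.014 in females with library size alone. Id1 between the sexes on statin turned to -0.029 with library size alone and to -0.045 with length offsets. With 1 liver out 29 member values changed sign, none of them called. In females the values then ran from -0.21 to 0.27 for Bmp6, -1.18 to 0.23 for Tfrc, -0.021 to 0.075 for Fth1 and -0.17 to 0.29 for Ftl1. In males they ran from -0.50 to 0.61 for Hamp, -0.41 to 0.055 for Bmp6, -0.054 to 1.03 for Id1 and -0.13 to 0.023 for Fth1, and in the interaction from -0.075 to 0.46 for Bmp6, -0.00035 to 0.15 for Fth1 and -0.33 to 0.13 for Ftl1. Between the sexes they ran from -0.29 to 0.81 for Hamp on chow, and on statin from -0.33 to 0.21 for Bmp6, -0.19 to 0.59 for Id1, -0.33 to 1.08 for Tfrc, -0.0058 to 0.17 for Slc40a1 and -0.085 to 0.38 for Ftl1.

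With a replicate block in the model 5 genes were called in females, and the Slc40a1 call on chow was lost (adjusted p = 0.0566) while Id1 passed (0.0320). The mean correlation of deviations was -0.11 over 18 same-numbered pairs and 0.06 over the others, and 1 of 12 livers correlated best with its own number, so that the numbers are not treated as pairs.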
